A study of Drosophila melanogaster with 8 samples.

Results

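In *Drosophila* leg discs, 305 stretches of the genome carried long runs of peaks for both Distal-less (Dll) and Sp1. These chains were chosen by peak position and number alone. The peaks of both lists were pooled, neighbouring peaks with a gap of 1000 bp or less were joined, and chains outside chromosome 4 were kept if they held at least 10 peaks and at least 1 of each factor. The pooled lists formed 6518 chains in all, of which 3424 lay outside chromosome 4 and held both factors. The 3119 of these with 2 to 9 peaks serve below as the smaller chains. Because the chains were selected on the positions of the same peaks that are described here, every number is a description, and no test of the chains against the rest was made.

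The lists come from chromatin immunoprecipitation followed by sequencing (ChIP-seq) of leg imaginal discs, the larval sheets of epithelium that form the adult legs, taken from wandering L3 larvae. Dll was precipitated from *yw* larvae with an anti-Dll antibody. Sp1 was precipitated with an anti-GFP antibody from Sp1-GFP (BAC) larvae, which carry a tagged Sp1 copy on a bacterial artificial chromosome at 1 landing site, so the Sp1 list reports the tagged protein in another genotype than the Dll list. Per factor the labels name 3 ChIP libraries beside 1 input, and each pool held 100 larvae with 6 leg discs taken from each. Whole discs were used, so a chain can combine peaks from different parts of the disc or from different cells. The peaks were called on merged libraries, which leaves 1 value per peak, no spread between replicates and no known read depth. A peak's value is the −log10 of its q value, the false discovery rate of the call, and both lists start at 4, so sequence without a peak may still hold binding that did not pass this threshold.

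Dll is a homeodomain transcription factor and the selector of the distal leg, and Sp1 is a zinc finger transcription factor needed for the ventral appendages. Both act early, when Wingless and Decapentaplegic signals set up the proximodistal axis of the limb, and both remain active while secreted signals pattern the segments. Enhancers of developmental genes in flies often hold sites for several factors, and 1 gene can have many enhancers spread over its locus.

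The chains held 4344 of the 22169 pooled peaks, or 19.6%. They took in 2238 of 12319 Dll peaks, or 18.2% (Wilson 95% interval 17.5 to 18.9), and 2106 of 9850 Sp1 peaks, or 21.4% (20.6 to 22.2). The intervals allow for counting error alone, as if peaks were independent of each other. Together the chains spanned 1565 kb. A chain had 10 to 49 peaks with a median of 12, of which 2 to 29 were Dll peaks (median 7) and 1 to 20 were Sp1 peaks (median 6). It spanned 1583 to 17725 bp, with a median of 4699 bp, against a median of 1096 bp in the smaller chains. The chains were long but not denser, with a median of 2.81 peaks per kb against 3.45 in the smaller chains.

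The requirement for both factors excluded almost nothing. Outside chromosome 4, only 2 chains of 10 or more peaks held 1 factor alone. The other 26 chains of that size were on chromosome 4, and 14 of them had both factors. Nearly all members were also well past the minimum of 1 peak of each factor, since 299 of the 305 had at least 3 Dll and at least 3 Sp1 peaks. Dll peaks outnumbered Sp1 peaks in 145 chains, Sp1 peaks outnumbered Dll peaks in 120, and 40 had equal numbers. Across the 305 chains the numbers of Dll and Sp1 peaks were only loosely related (Pearson r 0.32, Spearman rho 0.08). The minimum of 10 peaks in total shapes this relation, and all chains share the same libraries.

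**Figure D1:**
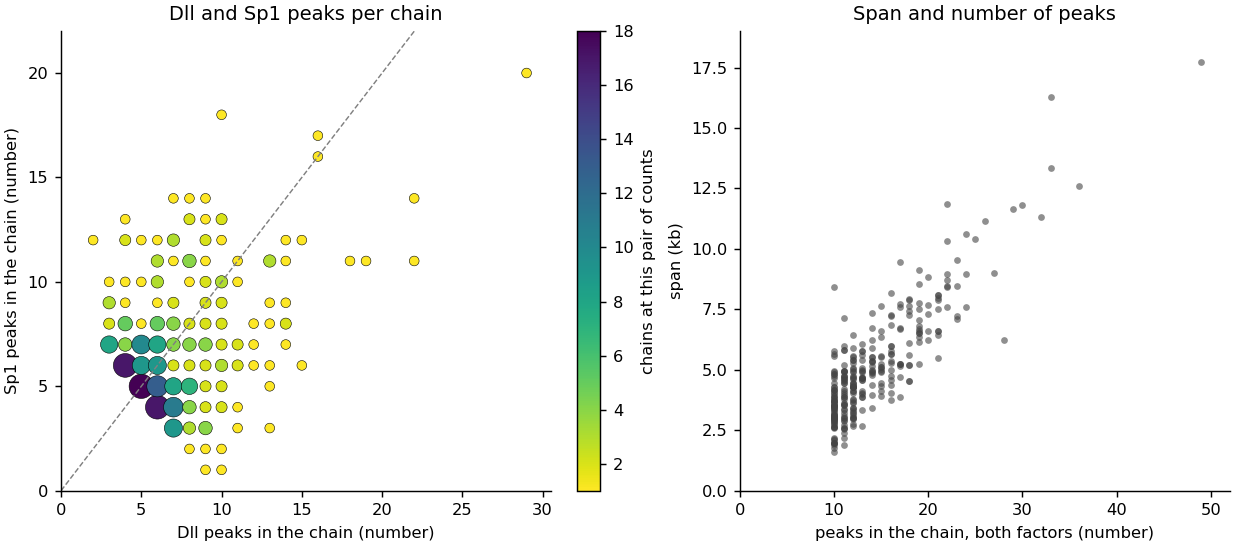
Left, the number of Dll peaks (horizontal) and Sp1 peaks (vertical) in each of the 305 chains, with the size and colour of a point giving the number of chains at that pair of counts and the dashed line marking equal numbers. Right, the span of each chain in kb against its number of peaks. Most chains sit at 10 to 16 peaks, and 1 chain with 29 Dll and 20 Sp1 peaks over 17725 bp stands apart from the rest.

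Most members were close to the size limit. There were 71 chains with exactly 10 peaks, 44 with 11 and 44 with 12, while 106 had 15 or more, 39 had 20 or more and 6 had 30 or more. The 71 chains just inside the limit had a median span of 3417 bp, with 5 Dll peaks, 5 Sp1 peaks, a strongest Dll peak of 18.51 and a strongest Sp1 peak of 13.31 (medians, −log10 q). The 109 chains just outside it, with 9 peaks, had a median span of 3052 bp, with 5 Dll peaks, 4 Sp1 peaks, a strongest Dll peak of 17.13 and a strongest Sp1 peak of 11.83. The chains thus form the upper end of a graded series of sizes.

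A count of 10 peaks was not a count of 10 separate bound stretches. When peaks of either factor that shared bases were merged, a chain held 3 to 27 bound segments with a median of 7. There were 39 chains with fewer than 5 segments and 66 with 10 or more. The number of chains moved with how peaks were counted. Joining peaks of 1 list that lay within 100 bp before chaining, an alternative chosen after seeing the data, left 136 chains, and keeping only peaks with a −log10 q of at least 6 left 105. The Dll peaks were broad and the Sp1 peaks narrow. The longest Dll peak of a chain had a median length of 1082 bp (522 bp in the smaller chains), and the longest Sp1 peak one of 398 bp (186 bp in the smaller chains). Neighbouring peaks of the same factor were often near each other. In the chains, 42.2% of the gaps between consecutive Dll peaks and 25.8% of those between consecutive Sp1 peaks were under 100 bp, and in the smaller chains these shares were 39.9% and 28.5%. Whether such neighbours are separate binding events or 1 broad stretch divided by the peak caller was not tested.

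Dll covered most of a chain. The shares that follow are medians over the chains, each taken on its own, so they need not add up to the whole. Dll peaks covered 71.8% of the span and Sp1 peaks 28.5%. Both factors together covered 25.6%, Dll without Sp1 43.7%, Sp1 without Dll 0.349%, and 26.5% lay under no peak. Dll covered more sequence than Sp1 in 300 chains and Sp1 more than Dll in 5. The smaller chains had medians of 78.1% for Dll, 29.1% for Sp1, 23.0% for both and 16.8% for neither. The larger share without a peak in the long chains follows in part from their construction, since each further join adds a gap of up to 1000 bp. The largest gap within a chain had a median of 506 bp and reached 999 bp.

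**Figure D2:**
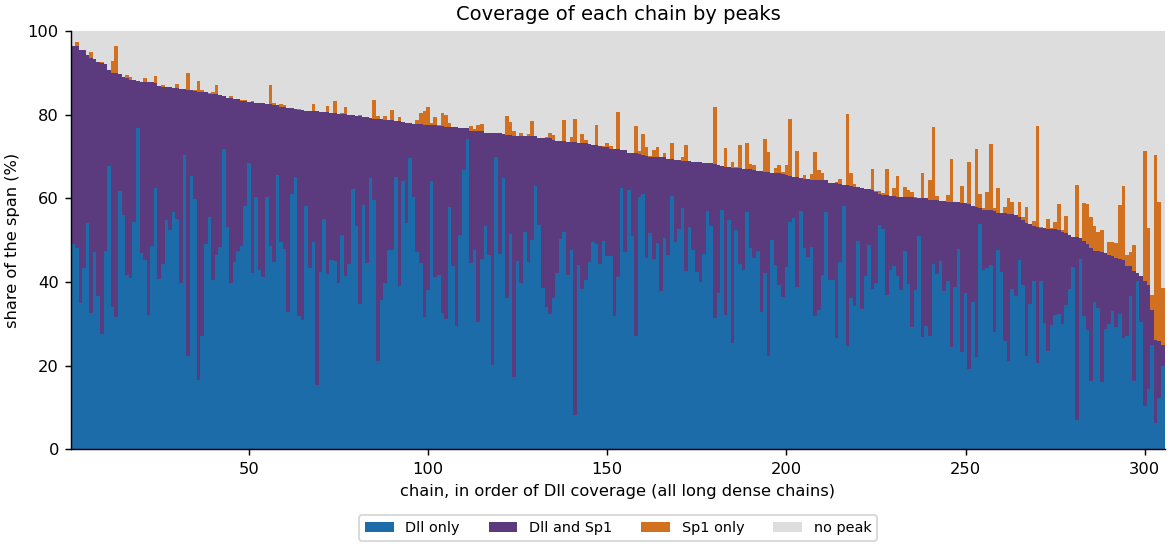
Share of the span (vertical, %) of each of the 305 chains under Dll peaks only, under both Dll and Sp1 peaks, under Sp1 peaks only and under no peak, with 1 bar per chain in order of Dll coverage (horizontal). Dll coverage runs between 25.02% and 96.6%, and Sp1 without Dll forms a thin band that is wide in only a few chains.

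Sp1 peaks in the chains lay almost entirely on Dll peaks. Of the 2106 Sp1 peaks in the chains, 1949, or 92.5% (Wilson 95% interval 91.3 to 93.6), shared at least 1 bp with a Dll peak, against 81.6% (80.6 to 82.5) in the smaller chains and 72.1% of all Sp1 peaks outside chromosome 4. In 217 chains, 71.1%, every Sp1 peak overlapped a Dll peak. The reverse was not so. Of the 2238 Dll peaks in the chains, 1274, or 56.9% (54.9 to 59.0), overlapped an Sp1 peak, against 59.6% (58.4 to 60.8) in the smaller chains and 44.5% of all Dll peaks outside chromosome 4. Every Dll peak overlapped an Sp1 peak in 43 chains. The rule asked for both factors within 1000 bp of a neighbour, so shares above those of the whole lists are built into the choice of chains. Dll peaks covered more sequence than Sp1 peaks in 300 chains, which bears on the difference between the Sp1 and the Dll share.

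Some Dll peaks in the chains overlapped several Sp1 peaks, but most overlapped none or 1. Of the 2238, 964 overlapped none, 843 overlapped 1, 264 overlapped 2 and 167 overlapped 3 or more. The highest number under 1 Dll peak was 9, on chromosome 2L. That Dll peak ran from 7422866 to 7426089 (dm3) with a −log10 q of 17.22, in a chain of 4 Dll and 12 Sp1 peaks that spans 7422264 to 7427238.

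Strong peaks of both factors were found in the chains more often than weak ones. In the lowest score decile of the Dll list 12.7% of the peaks lay in a chain (Wilson 95% interval 11.04 to 14.6), and in the highest decile 29.1% did (26.6 to 31.7). For Sp1 the share was 15.6% (13.4 to 18.0) in the lowest and 28.3% (25.6 to 31.3) in the highest decile. The very strongest peaks differed between the lists. Of the top 1% of Dll peaks, 50 of 124 were in a chain, or 40.3% (32.1 to 49.1). Of the top 1% of Sp1 peaks, 18 of 100 were, or 18.0% (11.7 to 26.7). The highest Dll value of the whole list, 60.31, was in a chain, whereas the highest Sp1 value of the list, 84.94, was not, and the highest Sp1 value in a chain was 64.84.

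The share of Dll peaks on Sp1 was lower in the long chains than in the smaller ones over most of the score range. In the lowest Dll decile 20.6% of the peaks in the long chains overlapped an Sp1 peak, against 33.7% in the smaller chains, and in the highest decile 93.8% did, against 92.2%. It was lower in the long chains in 8 of 10 deciles. For Sp1 it was higher in the long chains in all 10 deciles, with 81.0% against 71.8% in the lowest and 98.2% against 94.0% in the highest. Both kinds of chain were defined by the same peaks, so these differences are descriptions. The smaller chains had to hold both factors, and 751 of the 3119 had only 2 peaks, 1 of each. Every Dll peak in those 751 had an Sp1 peak within 1000 bp by construction, which bears on the comparison. The typical member of a chain was only a little stronger than its counterpart. The median Dll peak had a −log10 q of 8.67 and a length of 350 bp in the long chains and 7.47 and 321 bp in the smaller ones. The median Sp1 peak had 7.05 and 152.5 bp in the long chains and 6.52 and 133 bp in the smaller ones.

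**Figure D3:**
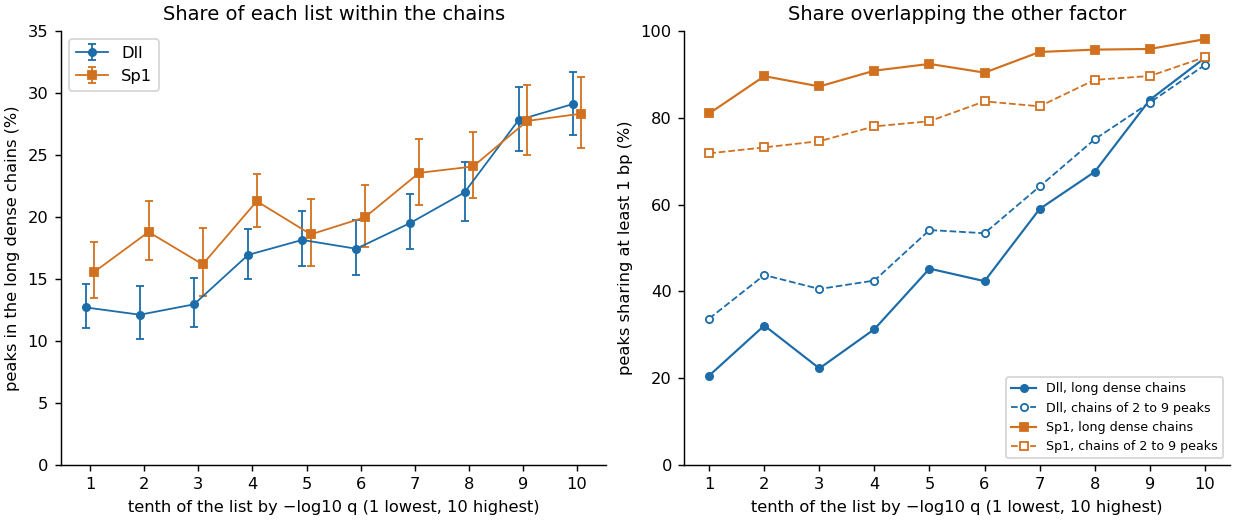
Left, the share of Dll and Sp1 peaks (vertical, %) that lie in the 305 chains for each decile of −log10 q within its list (horizontal, 1 lowest), with Wilson 95% intervals that cover counting error only. Right, the share of peaks that share at least 1 bp with a peak of the other factor, in the long chains (filled) and in the chains of 2 to 9 peaks (open). Dll overlap in the long chains was 20.6% in the lowest and 93.8% in the highest decile, while Sp1 overlap was at least 81.0% in every decile.

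Each chain usually had a strong Dll peak and less regularly a strong Sp1 peak. The strongest Dll peak of a chain had a −log10 q of 5.93 to 60.31 with a median of 20.04, against a median of 10.13 in the smaller chains. The strongest Sp1 peak had 5.05 to 64.84 with a median of 14.17, against 7.97. A chain with more peaks has more chances to hold a high value, which bears on these medians. The strongest Dll peak ranked above the 90th percentile of its list in 212 chains and the strongest Sp1 peak in 154. Both did in 127 chains and neither in 66. The 2 maxima were related across chains (Pearson r 0.38, Spearman rho 0.44, 305 chains that share libraries and differ in length).

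The highest points of both factors were frequently at different places in a chain. The strongest Dll and the strongest Sp1 peak shared bases in 141 chains, 46.2%, against 2162 of 3119 smaller chains, 69.3%, where there are fewer peaks to choose from. Their midpoints were a median of 645 bp apart, and up to 7957.5 bp, against a median of 160.5 bp in the smaller chains. Neither maximum favoured an end of the chain. The strongest Dll peak fell in the first, middle and last part of 3 equal parts in 105, 95 and 105 chains, and the strongest Sp1 peak in 102, 111 and 92.

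**Figure D4:**
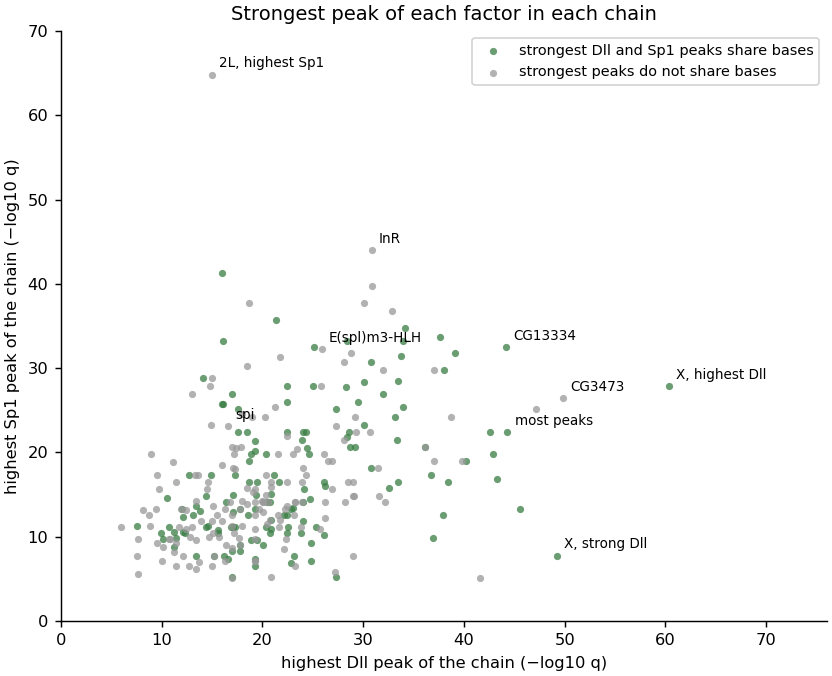
The highest Dll value (horizontal) against the highest Sp1 value (vertical) of each of the 305 chains, both as −log10 q, coloured by whether these 2 peaks share bases. The chain on 2L with the highest Sp1 value, 64.84, has a Dll maximum of only 14.98, and the chain on X with the highest Dll value, 60.31, has an Sp1 maximum of 27.90.

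The chain with the most peaks lay on chromosome 2R from 14216816 to 14234541. It had 29 Dll and 20 Sp1 peaks in 27 bound segments over 17725 bp. All 20 Sp1 peaks and 14 of the 29 Dll peaks overlapped the other factor. The strongest Dll peak, at 14225656 to 14226634 with a −log10 q of 44.32, held the strongest Sp1 peak, at 14226064 to 14226210 with 22.40. Immediately before it lay a Dll peak of 29.23 with an Sp1 peak of 14.87, and most of the Dll peaks without Sp1 had values between 4 and 8. This chain contained none of the study's intersection regions, the places where its authors found both factors, open chromatin and predicted sites together, so no gene name is given for it.

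On the same arm, from 14189869 to 14201181, a chain of 16 Dll and 16 Sp1 peaks held a region whose nearest gene was *scribbler* (*sbb*). Nearest genes are those named in the study's list of regions, and the nearest gene need not be the one controlled. The Dll peaks here were broad and strong, the highest at 14193033 to 14195080 with 39.85, while the highest Sp1 peak, at 14192352 to 14192655, reached 18.93. Both chains together placed 81 peaks within 44672 bp of 2R.

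Of the other chains with the most peaks, several held more Dll than Sp1. A chain on 2L from 3769522 to 3782136 had 22 Dll and 14 Sp1 peaks, and its strongest peaks reached 23.93 for Dll and 16.45 for Sp1. A chain on X from 2186570 to 2202853 had 22 Dll and 11 Sp1 peaks over 16283 bp, with maxima of 19.61 and 13.31. A chain on 2L from 11959622 to 11971431 had 19 Dll and 11 Sp1 peaks, with maxima of 28.09 and 30.78, and a chain on 3L from 1087284 to 1098946 had 18 Dll and 11 Sp1 peaks, with maxima of 29.10 and 14.87. In these 4 the strongest Dll and Sp1 peaks did not overlap.

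Others were balanced. The chain near *CheA75a* on 3L, from 18223909 to 18237264, had 16 Dll and 17 Sp1 peaks with maxima of 30.67 and 22.40. The chain near *Tet*, a member of the TET family of dioxygenases, had 15 Dll and 12 Sp1 peaks at 2830038 to 2839036 on 3L, and its maxima of 17.58 and 25.12 overlapped. A chain on 2R from 6421774 to 6432938 had 14 Dll and 12 Sp1 peaks with maxima of only 14.62 and 16.45. A chain on 3L from 3244611 to 3255023 had 14 and 11 peaks with maxima of 31.96 and 29.82, and the chain near *Art9* on 3R, from 9757396 to 9768014, had 13 and 11 with overlapping maxima of 42.60 and 22.40. Among these chains a high count therefore went with quite different peak strengths. Across all 305 chains the number of peaks was loosely related to the strongest Dll value (Pearson r 0.31, Spearman rho 0.28). The same held for the strongest Sp1 value (0.22 and 0.32). As said above, more peaks give more chances of a high value.

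The chain near *chickadee* (*chic*), the gene for the actin-binding protein profilin, was the most compact of the 12 chains with the most peaks. It packed 10 Dll and 18 Sp1 peaks into 6249 bp, at 5977031 to 5983280 on 2L. None of its Dll peaks exceeded 17.36, and its strongest Sp1 peak, at 5979897 to 5980051, reached 20.55. Sp1 peaks covered 55.5% of the span and Dll peaks 63.2%, and 5 of the 18 Sp1 peaks lay outside Dll peaks.

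**Figure D5:**
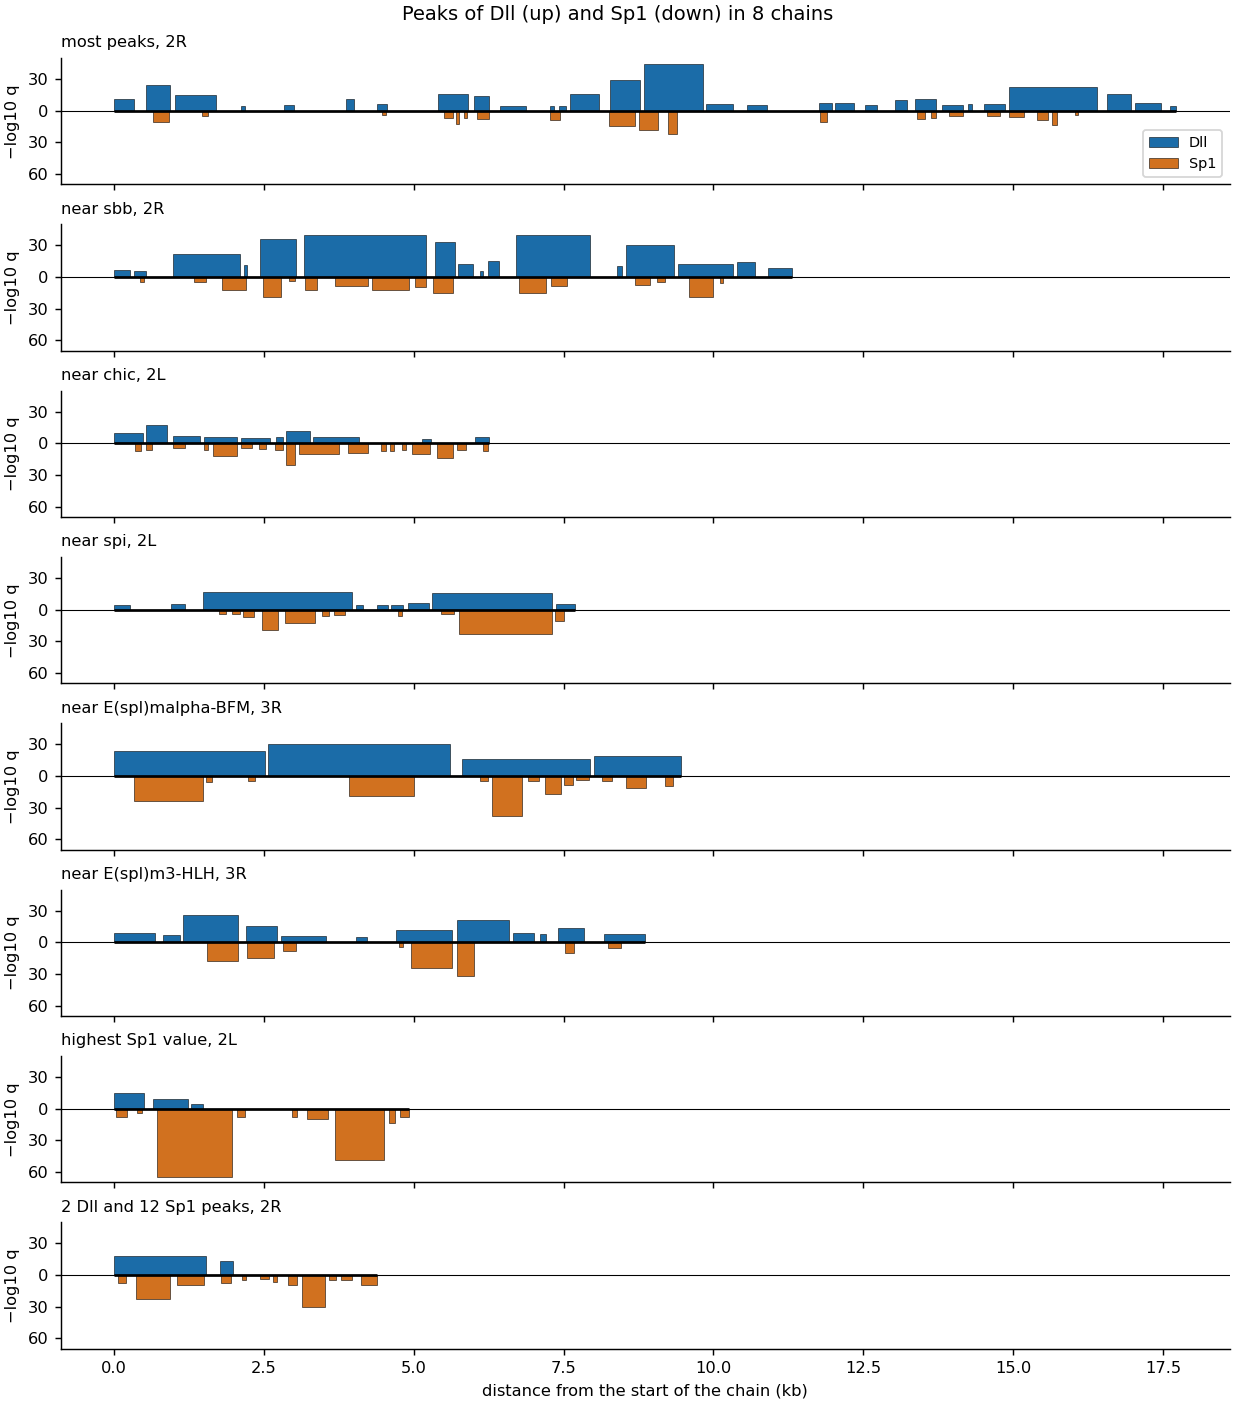
Peaks in 8 chains, drawn to 1 scale as distance from the start of the chain (horizontal, kb) and −log10 q (vertical), with Dll above and Sp1 below the line and the width of a bar giving the length of the peak. The chain with the most peaks extends over 17725 bp, the chain near *E(spl)malpha-BFM* is covered by 4 broad Dll peaks, and in the chain with the highest Sp1 value most Sp1 peaks lie where no Dll peak was called.

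At the extremes of composition, 3 chains were almost entirely Dll. On 3L, a chain from 10355322 to 10360266 had 10 Dll peaks with a maximum of 20.82 and 1 Sp1 peak at 5.25. A chain on 2R from 9470709 to 9479135 had 9 Dll peaks, the strongest at 41.64 over 3191 bp, and 1 Sp1 peak at 5.05. A further chain, on 3L from 10667175 to 10672711, had 10 Dll and 2 Sp1 peaks with maxima of 20.82 and 10.90. None of these 3 contained an intersection region, which requires peaks of both factors. Of all 305 chains, 35.1% contained one.

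At the other end, a chain on 2R from 18821140 to 18825522 had 2 Dll and 12 Sp1 peaks. Its Dll peaks, at 18.51 and 12.97, covered only the first part of the chain, and 8 Sp1 peaks beyond them, among them its strongest at 30.26, overlapped no Dll peak. Some other chains with few Dll peaks were different, because their Dll peaks were long. Near *expanded* (*ex*), which encodes an upstream component of the Hippo growth control pathway, 3 Dll peaks covered 92.6% of a chain with 10 Sp1 peaks (2L, 438912 to 442768), with maxima of 32.51 and 15.78. A second chain near *ex*, 427105 to 432150, had 4 Dll and 8 Sp1 peaks with maxima of 18.62 and 18.91.

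The Enhancer of split complex, a cluster of genes that respond directly to Notch, held a pair of chains. The one near *E(spl)malpha-BFM* (3R, 21827749 to 21837214) had 4 Dll peaks of 16.09 to 30.08 that covered 96.6% of its 9465 bp. All 13 of its Sp1 peaks lay on them, the strongest at 21834052 to 21834548 with 37.74. The one near *E(spl)m3-HLH*, a basic helix-loop-helix repressor gene (21841537 to 21850392), had 12 Dll and 8 Sp1 peaks. Its strongest Dll peak, at 21842694 to 21843605 with 25.89, and its strongest Sp1 peak, at 21847259 to 21847545 with 32.24, did not overlap. A reporter fragment that the study made from this locus (21846423 to 21847591) contained the Sp1 maximum and another Sp1 peak of 24.19, together with parts of Dll peaks of 12.05 and 21.71.

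The chain near *spitz* (*spi*), which encodes a ligand of the epidermal growth factor receptor (EGFR), ran from 19569486 to 19577169 on 2L with 9 Dll and 11 Sp1 peaks. It was built around a pair of broad Dll peaks. The first, at 19570972 to 19573450 with 16.58, held 7 Sp1 peaks of 4.00 to 18.93. The second, at 19574793 to 19576786 with 16.25, held the strongest Sp1 peak of the chain, 23.12, which was itself 1553 bp long and the longest Sp1 peak in any of the 305 chains. The 7 remaining Dll peaks were weak, between 4.02 and 6.13. The study's reporter fragments spi_LE2 (19571487 to 19571968) and spi_LE1 (19574894 to 19576815) each lay in or across 1 of the broad Dll peaks, which covered 100% of spi_LE2 and 98.5% of spi_LE1. A longer fragment from the study's scan of the *spi* locus (19568998 to 19578284) contained the whole chain. All 11 Sp1 peaks of the chain overlapped Dll.

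Only 2 further chains held sequence that the study placed in reporters. The fragment disco_In2 (16041232 to 16042800 on X) lay in a chain with 5 Dll and 7 Sp1 peaks near *disco-r*, a zinc finger gene active in the ventral appendages. The fragment overlapped Dll peaks of 18.69 and 14.84 and Sp1 peaks of 20.55, 4.70, 4.70 and 7.05, but not the strongest Sp1 peak of the chain, 37.74 at 16043111 to 16043430. The study reported a leg disc enhancer with a proximodistal bias for every gene it tested apart from *disco*. A fragment from a scan of the *rhomboid* (*rho*) locus, which encodes an intramembrane protease that activates EGFR ligands, contained the whole of a short chain on 3L (1457187 to 1458969). Its 6 Dll and 4 Sp1 peaks fit in 1782 bp, with overlapping maxima of 24.14 and 15.65. Of the 22 tested fragments in the study's fragment list as used here, 4 lay in chains, and these 4 were in 3 chains.

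Some very strong peaks were flanked by many weaker ones. The highest Dll value, 60.31, belonged to a peak of 2077 bp on X (12644269 to 12646346) that contained 4 Sp1 peaks, the strongest at 27.90. A chain on 2L near *CG3473* had a Dll peak of 49.86 at 14573434 to 14574118, which contained an Sp1 peak of 26.03. The strongest Sp1 peak of this chain was only slightly higher, at 26.46. It lay at the opposite end, on a Dll peak of 24.62. A chain on X from 5638491 to 5641861 had a Dll peak of 49.19 but no Sp1 peak above 7.74.

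The highest Sp1 value in a chain, 64.84, was on 2L at 5000757 to 5001999. The chain (5000034 to 5004961) had 9 Sp1 and 3 Dll peaks, and a second Sp1 peak of 48.93 at 5003715 to 5004533 overlapped no Dll peak. Dll covered 26.1% of this chain and Sp1 64.0%. Near *InR*, the insulin receptor gene, the strongest Sp1 peak reached 43.97 at 17445389 to 17445765 on 3R, with a Dll maximum of 30.84 nearby in the same chain. A chain on 2R from 19864482 to 19867595 had an Sp1 peak of 41.33 within a Dll peak of 15.97. Which factor had the higher value thus differed between chains. The lists come from different antibodies and genotypes, with read depth unknown, so their values are not on a common scale.

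The chains were found on every major arm. There were 64 on 2L, 65 on 2R, 68 on 3L, 62 on 3R and 46 on X, or 2.79, 3.08, 2.78, 2.22 and 2.06 per Mb of the stretch between the first and last peak of the arm. They held 22.8% of the peaks on 2L, 22.2% on 2R, 21.6% on 3L, 16.9% on 3R and 18.1% on X. None lay among the 127 peaks on heterochromatic or unplaced sequence. The median span was alike on the arms, between 4544 bp on 2R and 4903.5 bp on 3L. The median strongest Sp1 peak was 11.82 on X, the lowest of the arms, and 16.45 on 2L, the highest, whereas the median strongest Dll peak lay between 19.24 and 22.25.

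Chains were sometimes next to each other. The distance to the nearest other chain had a median of 77599 bp, and 89 chains were within 20 kb of another. These 89 formed 39 loci of several chains, of which 7 had 3 or 4. The loci with 4 chains were at 6421774 to 6490085 on 2R with 81 peaks, at 19131906 to 19166275 on 2L with 61 (near *brat*, a translational repressor gene), at 17428591 to 17468155 on 2R with 59, and at 17430294 to 17479537 on 3R with 53, near *InR* and the cell cycle regulator *E2f1*. The chain near *E2f1* had 7 Dll and 8 Sp1 peaks with overlapping maxima of 33.33 and 21.52. A locus of 3 chains near *grainy head* (*grh*), an epidermal transcription factor gene, had 44 peaks, and in the chain with the region a Dll peak of 33.95 overlapped an Sp1 peak of 33.20. Breaks between such chains depend on the gap of 1000 bp that was chosen.

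Of the 442 intersection regions of the study, 137, or 31.0% (Wilson 95% interval 26.9 to 35.5), lay in 107 of the 305 chains. A region was present in 35.1% of the chains, against 9.33% of the smaller chains. The longer chains have more room for one: of the 39 chains with 20 or more peaks 21 had a region, 53.8%, and of the 71 chains with 10 peaks 15 did, 21.1%. The chains also held 30.1% of all sequence shared by Dll and Sp1 peaks, which is close to their share of regions. Per 100 kb of shared sequence there were 33.0 regions in the chains and 31.6 elsewhere. Since the regions were made from these same peaks, their number gives no separate evidence on the chains. There were 84 chains with 1 region, 17 with 2, 5 with 3 and 1 with 4.

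The chain with 4 regions was the one near *CG3473*, with 7 Dll and 12 Sp1 peaks. Among those with 3, the chain near *aop* (*yan*), an ETS-domain repressor gene of the EGFR pathway, had 5 Dll and 10 Sp1 peaks at 2161067 to 2165504 on 2L. It formed only 3 bound segments, and both factors covered 58.3% of it, although the maxima were modest at 16.34 and 14.04. The chain near *crooked legs* (*crol*), an ecdysone-induced zinc finger gene, had 4 Dll and 8 Sp1 peaks at 11804502 to 11809455 on 2L, and 1 Dll peak of 3632 bp with 29.48 lay over most of it. The chain near *schnurri* (*shn*), a zinc finger cofactor in Dpp signalling, had 9 Dll and 10 Sp1 peaks at 7068415 to 7076984 on 2R, and its maxima of 28.61 and 22.40 lay on each other with midpoints 12.5 bp apart. The chains near *CR43971* and *CG1677* had maxima of 20.24 and 24.19, and of 22.18 and 12.56.

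Genes of several signalling pathways were among the nearest genes. Of 339 gene names in the region list, 98 were nearest to a region in a chain. In a list of 23 genes of the Wnt and Dpp pathways, 10 had a region and 7 had one in a chain (*Wnt6*, *fz*, *fz2*, *fz3*, *nkd*, *shn* and *tkv*, but not *Dad*, *H15* or *wg*). These are counts only, beside 98 of 339 for all genes with a region.

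Among the ligands, *Wnt6* had a chain of 6 Dll and 5 Sp1 peaks (2L, 7353769 to 7358525) with maxima of 38.76 and 24.19. Among the receptors, the chain near *frizzled* (*fz*) was the largest by count, with 14 Dll and 9 Sp1 peaks over 7116 bp and maxima of 23.12 and 12.56. The chain near *fz2* had 9 and 8 peaks, with overlapping maxima of 29.23 and 20.64 at its very start, and the chain near *fz3* on X had 6 and 6 peaks with maxima of 18.69 and 16.45. The chain near *thickveins* (*tkv*), the type I receptor of Dpp, had 11 Dll and 11 Sp1 peaks over 10336 bp, and its Dll maximum of 36.72 was 1 peak that ran from 5251738 to 5255655. Near *naked cuticle* (*nkd*), a feedback inhibitor of Wingless signalling, 10 Dll and 6 Sp1 peaks spanned 8163 bp with maxima of 28.83 and 31.75 that lay apart. Within the Wnt and Dpp list, the chains thus lay near receptor and inhibitor genes as well as near a ligand gene.

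The EGFR list of 16 genes had 3 with a region, of which *spi* and *aop* were in chains and *kek1* was not. The Notch and joint list of 18 had 4, of which *E(spl)m3-HLH*, *Ser* and *fng* were in chains and *drm* was not. *Serrate* (*Ser*) encodes a Notch ligand, and its chain of 6 Dll and 5 Sp1 peaks (3R, 23024597 to 23029550) had overlapping maxima of 33.19 and 24.19. *Fringe* (*fng*) encodes the glycosyltransferase that modifies Notch, and its chain had 11 Dll and 6 Sp1 peaks with overlapping maxima of 24.32 and 22.40. In the list of 15 Fat, Hippo and polarity genes 3 had a region, *ex* in a pair of chains and *ds* and *fj* in none. These are small counts, beside 98 of 339 for all genes with a region, and were not tested.

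Of 30 genes in the list of selector and proximodistal genes, 12 had a region and 3 had one in a chain, *disco-r*, *dve* and *nub*, beside 98 of 339 for all genes with a region. The regions nearest to *Dll*, *Sp1*, *btd*, *bab2*, *disco*, *elB*, *noc*, *ss* and *zfh2* lay outside the chains. The homeobox gene *dve* had 4 Dll and 6 Sp1 peaks with maxima of 20.82 and 12.01, and the POU-domain gene *nub* had 9 and 5 with maxima of 28.44 and 16.48. Of 13 ecdysone response genes 5 had a region and only *crol* had any in a chain, with *EcR*, *Eip74EF*, *Eip78C* and *vri* outside. Of 11 Hox genes and cofactors only *Antp* had any region, and its 4 regions lay outside the chains. Whether a list's share differs from that of all genes with a region was not tested.

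Of 14 cell shape and epidermal genes, 4 had a region and *chic*, *cv-c* and *ovo* had one in a chain, whereas *bs* did not. This small count stands beside 98 of 339 for all genes with a region and was not tested. The chain near *crossveinless c* (*cv-c*), which encodes a RhoGAP, had 5 Dll and 6 Sp1 peaks in 2399 bp on 3R, with both factors over 65.5% of it and maxima of 17.58 and 22.37. The chain near *ovo*, a regulator of epidermal trichomes, was of the opposite kind, with 14 Dll and 7 Sp1 peaks over 7903 bp and both factors over 21.6%. Its maxima of 29.01 and 16.45 did not overlap.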

How the data were processed

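Leg disc chromatin of *yw* and Sp1-GFP (BAC) larvae was precipitated for Dll and, through GFP, for Sp1. The authors aligned the reads with BWA, called peaks with MACS2 (version 2.0.9 in the submitters' processing notes) on merged libraries in the dm3 build, and deposited a list for each factor that gives every peak a −log10 q value. The lists hold no read counts, so depth is unknown and no replicate values exist. Coordinates are printed as listed. Starts were read as counted from 0, and positions of the study's regions and fragments as counted from 1.

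Python 3.11.15 was used, with pandas 2.3.3, numpy 2.4.6, scipy 1.17.1 and matplotlib 3.10.9. A shared length of 1 bp counted as an overlap, score deciles were taken from percentile ranks within each list, and the chaining was tested on simulated data. The chains described singly were the 12 with most peaks, the 3 with the highest and the 3 with the lowest Dll share, those with a reporter fragment or at least 3 intersection regions, and the 3 with the highest value of each factor. Genes were named through these chains or through 8 gene lists. A few other chains were named after their values were seen: those of loci with several chains (*brat*, *E2f1*, *grh*) and the chain with 9 Sp1 peaks under 1 Dll peak. The members and lists were chosen with earlier results of these data known. All 339 gene names of the region list matched a later RefSeq gene table, which gave names only. Alternatives in gap, size, threshold and overlap were tried.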

Additional observations from a re-analysis of the deposited data

How the results depend on the processing

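The 305 chains held 19.6% of pooled peaks, with 56.9% of their Dll and 92.5% of their Sp1 peaks overlapping the other factor. With joins of up to 500 bp there were 235 chains, the pooled share was 14.1% and the overlaps 62.3% for Dll and 94.3% for Sp1, and with joins of up to 2000 bp there were 404 chains and these shares were 27.3%, 53.1% and 89.99%. A minimum of 8 peaks gave 543 chains with 28.7% of the peaks, and of 12 peaks 190 chains with 14.2%. A −log10 q of at least 6 left 105 chains with 10.4% of the peaks and a Dll overlap of 59.4%. Counting 10 bound segments in place of 10 peaks left 66 chains with 6.15% of the peaks and overlaps of 48.2% for Dll and 90.9% for Sp1. An overlap of 50% of both peaks gave 20.5% for Dll and 21.8% for Sp1, which is 458 peaks of each list. Joining peaks of 1 list within 100 bp, an alternative chosen after seeing the data, left 136 chains with 9.96% of the peaks and a Dll overlap of 62.9%. The limits were 1.5 times the main number of chains and the Wilson 95% interval of the main share. Of the alternative values, 22 fell outside these limits and 18 stayed within them. The 18 included the 235 and 404 chains above. They also included every value with at least 3 peaks of each factor, an overlap of 50 bp or starts counted from 1. Counting starts from 1 was also chosen after seeing the data.

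No paired analysis was possible because each list comes from merged libraries. Leaving out each library in turn could not be run for the same reason. The methods name triplicate pools and also merged duplicates, so how many libraries entered each list is uncertain.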

Other observations

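Several genes outside the fixed lists also had a region in a chain, and those named here were chosen after their values were seen. The glypican genes *dally* and *dlp*, whose products bind extracellular signals, had chains of 8 Dll and 14 Sp1 peaks (3L, 8813611 to 8821196) and of 8 Dll and 11 Sp1 peaks (3L, 14625154 to 14631677). Their maxima were 20.39 for Dll and 17.26 for Sp1 near *dally*, and 26.87 and 15.70 near *dlp*. The chain near *arrow* (*arr*), the Wingless co-receptor gene, had 5 Dll and 6 Sp1 peaks and a Dll maximum of 38.40 that overlapped the Sp1 maximum of 16.45. The chain near *Wnt2* had 12 Dll and 6 Sp1 peaks with overlapping maxima of 40.20 and 18.91.

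The Hedgehog receptor gene *patched* (*ptc*) had 6 Dll and 5 Sp1 peaks (2R, 4534242 to 4538116), and its Sp1 maximum of 32.48 lay within its Dll maximum of 25.14. The Hedgehog co-receptor gene *boi* had 5 and 5 peaks with maxima of 16.79 and 14.07 that did not overlap. Near *upd3*, a ligand gene of the JAK/STAT pathway, 4 Dll and 6 Sp1 peaks fitted into 2130 bp on X, with overlapping maxima of 28.73 and 20.64. Near *kismet* (*kis*), a chromatin remodelling gene, 3 Dll and 9 Sp1 peaks had lower maxima of 14.37 and 11.09.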
